A study of Mus musculus with 8 samples.

Results

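Aminoacyl-tRNA synthetases load each amino acid onto the tRNA that carries its anticodon. Their genes were taken from the gene table by symbol: a 1-letter amino acid code followed by "ars", with or without a final 1 or 2, together with Eprs, Pars2, Fars2, Farsa and Farsb. The table of 13101 genes held 35 of them, 19 for cytosolic enzymes and 16, with symbols ending in 2, for mitochondrial enzymes. Of 37 names searched, Vars and Aars2 were not analysed here.

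RNA was measured in 8 pools of mouse embryos at the 2-cell stage, all on the C57BL/6 background and collected after timed matings. The 4 Dux KO pools carry a knockout of Dux, whose protein is a DNA-binding activator of early embryonic genes, and the 4 WT pools are wild type. Each library was made from polyA RNA of 12 to 18 pooled embryos, so that no value belongs to a single embryo. The design of the knockout allele is not given in the sources used here. Because whole embryos were pooled, fewer cells with a transcript and less RNA of it per cell cannot be told apart.

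The libraries held 12343369 to 14548526 gene reads each, of which the synthetase genes took 0.217 to 0.249% in WT against 0.195 to 0.221% in Dux KO. Dux itself was not analysed here. MERVL-int, the internal part of a retrovirus that DUX is known to activate, stood at 11359.6 to 16381.1 FPM (fragments scaled to library size) in WT against 4548.3 to 6050.2 in Dux KO, with no overlap. Of markers of the 2-cell embryo, 8 of 9 had a row, with summed FPKM (fragments scaled to transcript length and library size) of 160 to 309 in WT against 201 to 329 in Dux KO, and 1 of the 8 tested, Zscan4f, fell (limma adjusted p under 0.05). The pools of Zscan4f overlapped between groups. All 12 oocyte-derived markers had a row, and 3 rose and 3 fell. Over all genes tested, 15.5% rose and 18.1% fell. Of the cumulus and granulosa cell markers 4 of 10 had a row, with Fshr, Amh and Foxl2 among those without one. Their sums were 24.5 to 34.1 FPKM in WT against 24.8 to 40.1 in Dux KO. Cyp19a1, at a low level, rose from 0.420 to 1.06 FPKM (log2 change 0.53, limma adjusted p = 0.0167), on 12 to 36 reads per WT pool. Amhr2, the most abundant of the 4, was at 22.9 FPKM in WT against 19.5 in Dux KO (-0.19) and did not pass. Tnfaip6 (-0.08) and Inha (1.08) did not pass either, and their pools overlapped. Of the oviduct markers 3 of 6 had a row, and their sums, mostly Epcam, were 127 to 147 FPKM in WT against 87.3 to 125 in Dux KO. Epcam fell (-0.56, limma adjusted p = 0.0297). Ovgp1 went the other way, at 4.96 ± 4.53 FPKM in WT against 10.5 ± 8.52 in Dux KO. Its pools overlapped and it did not pass (0.91, limma adjusted p = 0.213). The blood and sperm markers had a row for 0 of 6 each. The part of these markers in the results below was not tested.

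Animal cells keep separate sets of these enzymes. The cytosolic set serves nuclear-encoded translation, and the mitochondrial set, itself made from nuclear genes and imported, charges the tRNAs that the mitochondrial genome encodes. Gars and Kars, counted here with the cytosolic genes, are known to make the enzyme of both compartments, and Eprs makes a fused enzyme for glutamate and proline. Several cytosolic enzymes sit together with scaffold proteins in the multisynthetase complex. The 2-cell embryo still translates much maternal RNA while its own genome is being activated.

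In WT embryos the levels of the synthetase transcripts spread widely. Rars, the cytosolic arginine enzyme, was the most abundant at 148 ± 22.3 FPKM (SD, n = 4), and its lowest WT pool, 121, lay above the highest of any other member. Farsb, the beta subunit of the cytosolic phenylalanine enzyme, followed at 53.3 ± 3.16. Nars, for asparagine, at 41.6 ± 3.29 and Dars, for aspartate, at 41.0 ± 2.51 came next, and their WT pools overlapped. The most abundant mitochondrial gene was Fars2, for phenylalanine, at 36.3 ± 5.32 and rank 5 of 35. Vars2 and Iars2, the mitochondrial valine and isoleucine enzymes, were the least abundant at 0.413 and 0.385 FPKM, with 17 to 37 and 19 to 64 reads per WT pool. In Dux KO they stood at 0.472 and 0.409. Both fell under the mean of 0.5 FPKM asked of a gene for testing, which left 33 members. The plot of levels by pool shows the spread of genes in both groups.

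**Figure D1:**
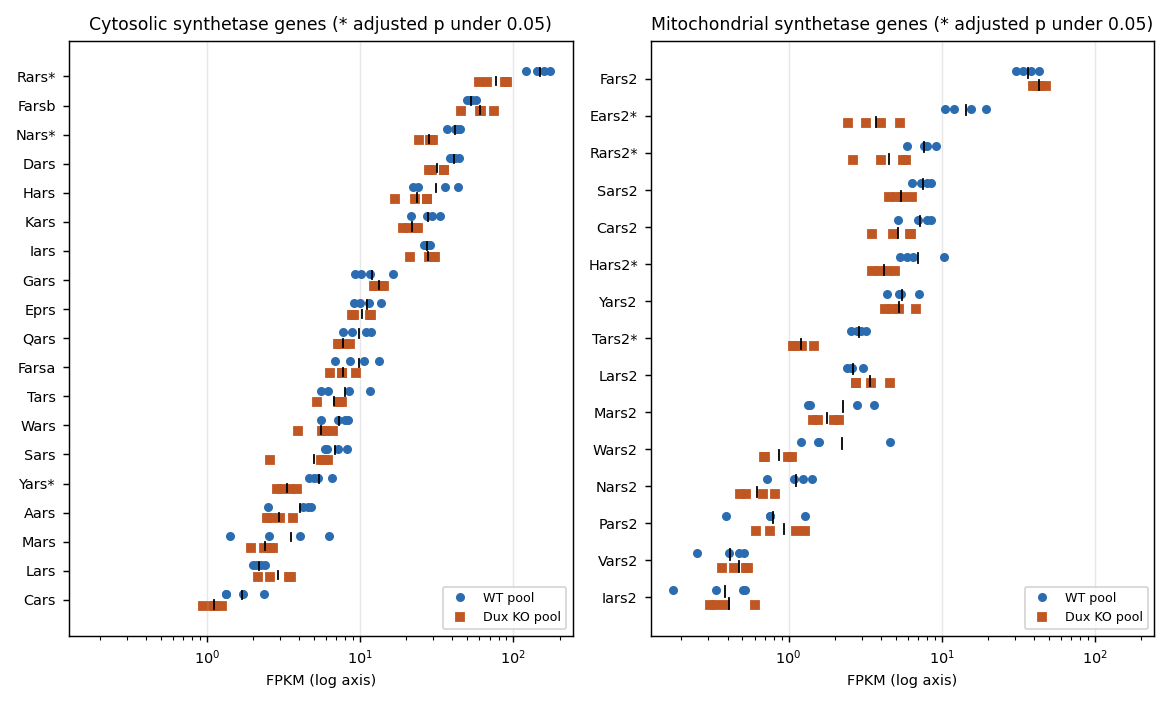
FPKM (log axis) of 34 of the 35 synthetase genes in each WT (circles) and Dux KO (squares) pool, with the group mean as a bar and an asterisk where the adjusted p is under 0.05. Rars leads in both groups, and Ears2 moves from rank 9 in WT to rank 22 in Dux KO.

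Loss of Dux went with lower levels of 7 synthetase genes and higher levels of none. By limma with Benjamini-Hochberg adjustment over 12434 genes, Ears2, Rars, Tars2, Rars2, Hars2, Nars and Yars fell at an adjusted p under 0.05. That is 21.2% of the 33 members tested, against 18.1% of all genes tested that fell. No member rose, against 15.5% of all genes. The other 26 members did not pass, and 33.6% of all genes passed in either direction. At an unadjusted limma p under 0.05, 11 members were lower and 0 higher, against 3083 and 2702 of all 12434 genes tested. On recovered reads edgeR called 8 members lower and 0 higher, against 17.6% and 17.3% of all genes, and DESeq2 9 and 0, against 19.8% and 19.7%. The authors' deposited table had 9 of 35 members lower and 0 higher, against 18.6% and 16.2% of all genes.

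The 33 log2 fold changes (Dux KO minus WT, on the log2(FPKM + 1) scale) had a median of -0.33, and 25 of them lay under 0. Over all genes tested the median was -0.02, and 51.6% lay under 0. In 10 members every Dux KO pool lay under every WT pool, against 18.1% of all genes, and in 0 members did every Dux KO pool lie above, against 15.0% of all genes. Genes of higher level leaned lower across the whole table: among those with a mean of at least 5 FPKM, 45.0% passed, 29.1% fell and the median was -0.18. Of the 22 members at that level, 5 fell, and their median was -0.34.

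**Figure D2:**
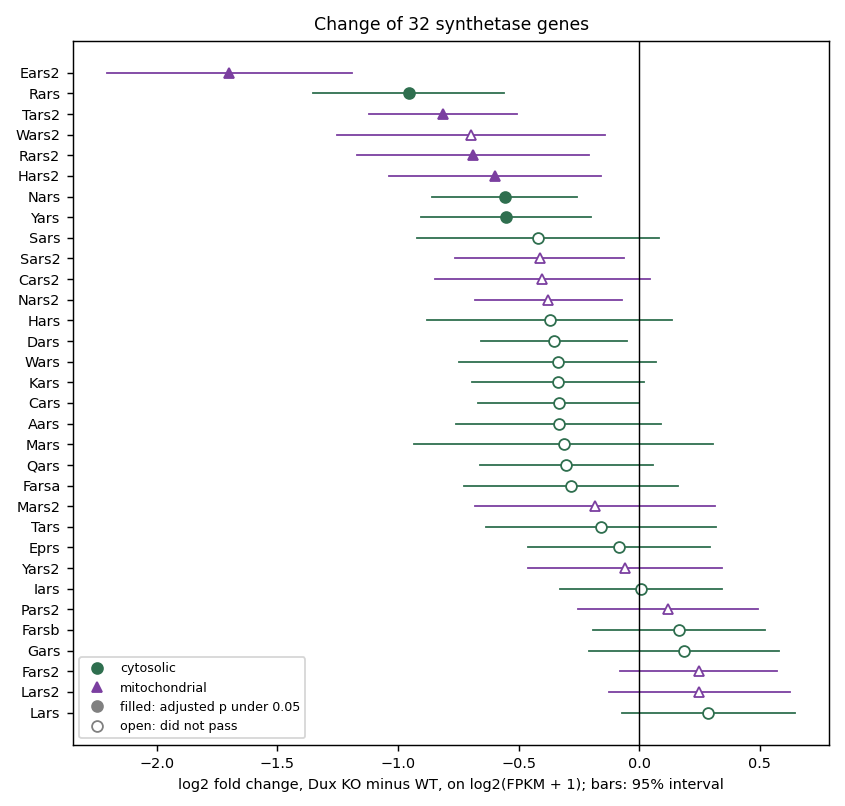
Log2 fold change (Dux KO minus WT, on log2(FPKM + 1)) of 32 of the 33 synthetase genes tested, with 95% intervals from limma; circles are cytosolic and triangles mitochondrial enzymes, filled where the adjusted p is under 0.05. The 7 filled points all lie under 0, with Ears2 at -1.70, and the open points run from -0.70 to 0.29.

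Among mitochondrial genes, 4 of 14 tested fell (28.6%), with a median of -0.39 and 10 of 14 under 0. The shares over all genes tested were 18.1% that fell and 51.6% under 0. Ears2, the mitochondrial glutamate enzyme (chr7:122037213-122067263, minus strand, GRCm38), changed most. WT replicates 1 to 4 held 10.5, 15.4, 12.0 and 19.5 FPKM, and Dux KO replicates 1 to 4 held 3.18, 2.44, 5.30 and 4.00. The highest Dux KO pool had about 1/2 of the lowest WT pool. The means, 14.3 ± 3.99 and 3.73 ± 1.22 (SD, n = 4 each), were 3.85-fold apart, for a log2 fold change of -1.70 (limma adjusted p = 0.00207, 95% interval -2.20 to -1.19). The reads behind them were 665 to 1322 per WT pool and 198 to 405 per Dux KO pool.

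Tars2, the mitochondrial threonine enzyme (chr3:95739976-95760206, minus strand), was low but tight among pools. WT pools held 2.57, 2.78, 2.98 and 3.19 FPKM, and Dux KO pools 1.07, 1.22, 1.09 and 1.46. The groups lay well apart, at 2.88 ± 0.265 and 1.21 ± 0.179, a 2.38-fold difference on 219 to 291 and 108 to 141 reads. On the log2(FPKM + 1) scale, which understates the change of low genes, Tars2 fell by 0.81 (limma adjusted p = 0.00359, 95% interval -1.12 to -0.51). With edgeR on recovered reads the log2 fold change was -1.21.

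Rars2, the mitochondrial arginine enzyme (chr4:34614957-34660167, plus strand), held 7.61, 9.14, 5.93 and 8.06 FPKM in WT against 2.63, 3.99, 5.55 and 5.85 in Dux KO. The groups did not overlap, but WT replicate 3 and Dux KO replicate 4 lay close together. The log2 fold change was -0.69 (limma adjusted p = 0.0335, 95% interval -1.17 to -0.21). Hars2, for histidine, held 5.32, 6.44, 10.3 and 5.91 in WT against 3.49, 3.91, 4.41 and 4.91 in Dux KO. WT replicate 3 was the highest, and no pool crossed between the groups. Its log2 fold change was -0.60 (limma adjusted p = 0.0403, 95% interval -1.04 to -0.16). The calls of Rars2 and Hars2 were lost in 5 and 6 of the 8 fits that left out 1 pool, with adjusted p up to 0.0920 and 0.106.

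Wars2, for tryptophan, missed the threshold with limma (log2 change -0.70, adjusted p = 0.0528) although its groups did not overlap. WT pools held 1.20, 1.59, 1.56 and 4.59 FPKM, and Dux KO pools 0.707, 0.695, 1.05 and 0.990. WT replicate 4 was far above the other 3 WT pools. Wars2 passed with edgeR (adjusted p = 0.0182) and DESeq2 (adjusted p = 0.00398), and over its 19 alternatives the adjusted p ran from 0.00398 to 0.283. Sars2 for serine (-0.41, limma adjusted p = 0.0644), Nars2 for asparagine (-0.38, 0.0561) and Cars2 for cysteine (-0.40, 0.142) also had negative values that did not pass. Mars2, for methionine, stood at -0.18, Yars2, for tyrosine, at -0.06, Pars2, for proline, at 0.12 and Lars2, for leucine, at 0.25, none of them past the threshold. Fars2 held 42.7, 38.4, 33.7 and 30.6 FPKM in WT against 41.7, 47.7, 43.4 and 39.4 in Dux KO, with overlap (log2 change 0.25, limma adjusted p = 0.208).

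Among cytosolic genes, 3 of 19 fell (15.8%), with a median of -0.33 and 15 of 19 under 0. The shares over all genes tested were 18.1% and 51.6%. No difference between cytosolic and mitochondrial genes was tested. Rars (chr11:35808381-35834506, minus strand) held 121, 142, 172 and 159 FPKM in WT against 67.3, 59.4, 91.2 and 88.6 in Dux KO. Every Dux KO pool lay well under the lowest WT pool. The means were 148 ± 22.3 and 76.6 ± 15.7 (SD, n = 4 each), 1.94-fold apart, for a log2 fold change of -0.96 (limma adjusted p = 0.00465, 95% interval -1.35 to -0.56). In Dux KO Rars still ranked 1 of 35, but its pools overlapped those of Farsb, which held 74.9, 61.5, 60.7 and 45.6 FPKM. Farsb in WT held 53.7, 49.7, 57.3 and 52.3 FPKM, and its log2 fold change of 0.17 did not pass (limma adjusted p = 0.438).

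Nars held 37.1, 42.9, 41.8 and 44.8 FPKM in WT against 28.8, 24.3, 28.9 and 30.1 in Dux KO, with a clear gap between the groups. Its log2 fold change was -0.56 (limma adjusted p = 0.0127, 95% interval -0.86 to -0.26). Yars, for tyrosine (chr4:129189760-129219607, plus strand), held 4.63, 5.32, 5.001 and 6.59 in WT against 3.11, 2.88, 3.48 and 3.90 in Dux KO, also without overlap. Its log2 fold change was -0.55 (limma adjusted p = 0.0240, 95% interval -0.91 to -0.20), and the call was lost in 3 of the 8 fits that left out 1 pool, with adjusted p up to 0.0707.

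Dars held 44.4, 38.8, 39.3 and 41.3 FPKM in WT against 35.1, 28.2, 35.2 and 29.4 in Dux KO; the groups did not overlap, but the log2 fold change of -0.35 did not pass (limma adjusted p = 0.0683). Cars, for cysteine, was likewise apart without passing, at 1.69 ± 0.486 in WT against 1.11 ± 0.129 in Dux KO (log2 change -0.33, adjusted p = 0.108). 10 others had values under 0 that did not pass and groups that overlapped: Hars, Kars, Qars, Wars, Sars, Aars, Mars, Farsa, Tars and Eprs, from -0.42 for Sars to -0.08 for Eprs. Iars, for isoleucine, at 0.01, Gars, for glycine, at 0.18 and Lars, for leucine, at 0.29 lay above 0 and did not pass.

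The enzymes of the multisynthetase complex, Eprs, Iars, Lars, Qars, Mars, Kars, Rars and Dars, had 1 of 8 lower, Rars. Their median was -0.31, and the values ran from -0.96 to 0.29. By structural class, 4 of 15 class I enzymes tested fell, with a median of -0.33, and 3 of 17 class II enzymes, with a median of -0.34. The shares that fell were 12.5% for the complex, 26.7% for class I and 17.6% for class II, against 18.1% of all genes tested.

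Pairing the enzymes that charge the same amino acid in the 2 compartments gave 16 pairs, 15 with both members tested. Eprs is paired with both Ears2 and Pars2, and Fars2 with both Farsa and Farsb, so the pairs are not all separate. In 1 pair, Rars and Rars2, both fell. In 3 pairs the mitochondrial gene alone passed (Ears2, Tars2, Hars2), in 2 the cytosolic gene alone (Nars, Yars), and in 9 neither passed. The pair of Iars and Iars2 is not among these, since Iars2 was not tested. The cytosolic gene had the higher WT mean in 10 of 16 pairs. No difference between the members of a pair was tested.

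The log2 ratio of cytosolic to mitochondrial FPKM + 1 within each pool separated the groups in 2 of 16 pairs. For Eprs over Ears2 the log2 ratios of FPKM + 1 were -0.06, -0.70, 0.18 and -0.73 in WT against 1.58, 1.52, 0.69 and 1.37 in Dux KO, so that Ears2 lay near or above Eprs in WT and below it in every Dux KO pool. Eprs itself held 10.1, 9.08, 13.8 and 11.4 FPKM in WT against 11.5, 8.85, 9.15 and 11.9 in Dux KO. For Yars over Yars2 they were -0.16, 0.22, -0.09 and -0.09 in WT and -0.61, -0.44, -0.80 and -0.23 in Dux KO. Yars2 held 5.27, 4.41, 5.38 and 7.07 FPKM in WT against 5.27, 4.26, 6.79 and 4.76 in Dux KO. In the other 14 pairs these ratios overlapped. As ratios of FPKM with no pseudocount, chosen after seeing the data, 3 of 16 pairs did not overlap. The added pair was Tars over Tars2, at 2.40, 1.99, 3.88 and 2.65 in WT against 7.06, 4.27, 6.65 and 4.90 in Dux KO.

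The partners of Tars2, Hars2 and Nars overlapped between groups. Tars, the cytosolic threonine enzyme, held 6.16, 5.54, 11.6 and 8.46 FPKM in WT against 7.58, 5.21, 7.25 and 7.15 in Dux KO. Hars held 24.0, 22.1, 43.7 and 36.0 in WT against 27.2, 17.0, 27.2 and 22.8 in Dux KO. Nars2 held 1.09, 0.723, 1.43 and 1.24 in WT against 0.811, 0.529, 0.484 and 0.680 in Dux KO. Tars and Hars were both highest in WT replicate 3, which widened their WT spread.

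**Figure D3:**
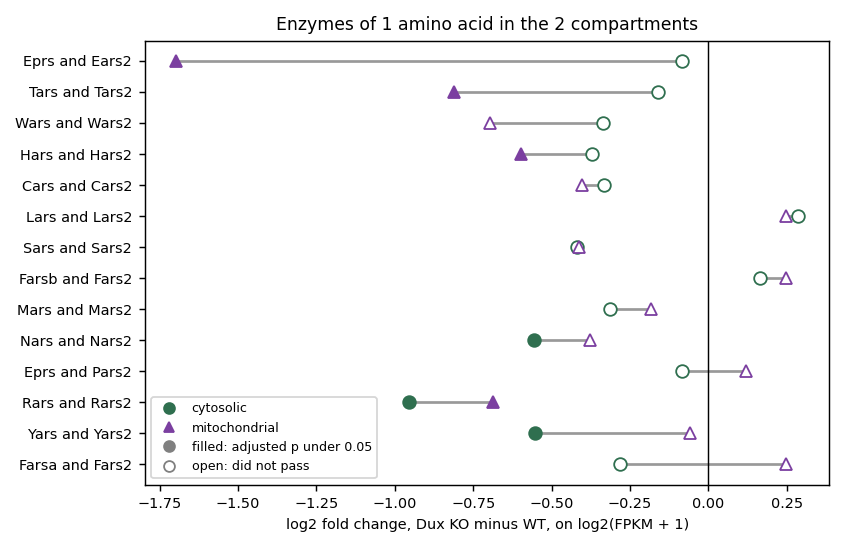
Log2 fold change (Dux KO minus WT, on log2(FPKM + 1)) of the cytosolic (circle) and mitochondrial (triangle) enzyme for 14 of the 15 pairs with both genes tested, filled where the adjusted p is under 0.05. Eprs at -0.08 and Ears2 at -1.70 lie farthest apart, and only for Rars and Rars2 are both points filled.

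Summed over members, cytosolic FPKM was 395.5 to 498.1 per pool in WT against 305.4 to 367.0 in Dux KO, without overlap. Without Rars the sums were 274.7 to 329.3 and 245.9 to 280.8, and the groups overlapped. Mitochondrial FPKM was 97.7 to 107.8 in WT against 83.9 to 92.6 in Dux KO, without overlap, and without Ears2 the sums, 87.2 to 92.4 and 80.5 to 87.3, overlapped. The ratio of the 2 sums, 3.98 to 4.81 in WT against 3.48 to 4.15 in Dux KO, overlapped. The FPKM total over all genes was itself lower in Dux KO, at 377780 to 425287 against 434070 to 488076 in WT. Its part in these sums was not tested.

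The pools of a group were not alike. The median member lay -0.19, -0.01, 0.01 and 0.11 from its WT mean on the log2(FPKM + 1) scale in WT replicates 1 to 4, and -0.22, -0.37, -0.24 and -0.32 in Dux KO replicates 1 to 4. WT replicate 1 had 28 of 33 members under the WT mean, as many as Dux KO replicate 2. WT replicate 4 had 7.

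**Figure D4:**
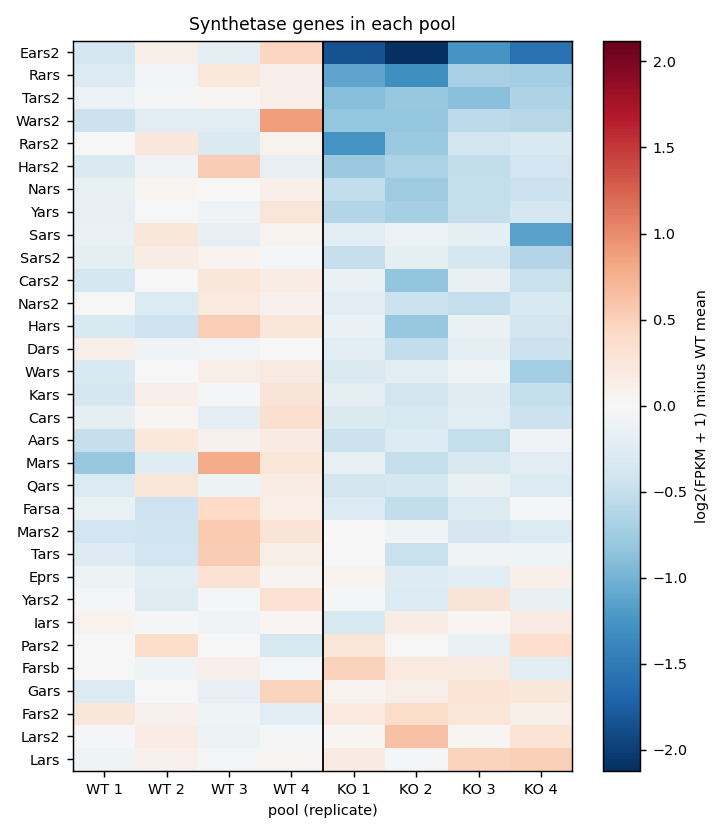
Difference of log2(FPKM + 1) from the WT mean for 32 of the 33 synthetase genes tested (rows) in each pool (columns), blue where lower and red where higher, ordered by log2 fold change. Ears2, Rars and Tars2 are lower in all 4 Dux KO pools, and WT replicate 1 lies under the WT mean for 28 of 33 genes.

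Several members start close to another gene on the opposite strand in GENCODE M21. For 9 of them such a neighbour within 1000 bp had a row in the gene table. Cars, Eprs and Iars2 had only neighbours without a row. The start of Ubfd1, a gene with a ubiquitin-like domain, lies 88 bp from that of Ears2. Ubfd1 was at 24.1 ± 4.34 FPKM in WT against 19.4 ± 2.45 in Dux KO (log2 change -0.29, limma adjusted p = 0.191), a 1.24-fold difference of means beside the 3.85-fold difference of Ears2. Orc3, an origin recognition complex subunit that starts 13 bp from Rars2, fell along with it (-0.59, limma adjusted p = 0.0317), from 6.05 ± 0.846 to 3.74 ± 0.887 FPKM. S100pbp, 33 bp from Yars, did not pass (-0.37, adjusted p = 0.195). Hars and Hars2 start 197 bp from each other, and of that pair only Hars2 passed.

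At the other starts, Lyrm4, a factor of iron-sulfur cluster assembly 114 bp from Fars2, rose from 4.98 ± 1.24 to 11.0 ± 2.03 FPKM (log2 change 1.01, limma adjusted p = 0.00515), while Fars2 did not pass. Terf2ip, a telomere protein gene 75 bp from Kars, fell (-0.42, adjusted p = 0.0428), while Kars at -0.34 did not pass. Mrps12 near Sars2 (0.29, adjusted p = 0.250) did not pass either. No difference between neighbours was tested.

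Exons of 8 members overlap exons of another gene of the table on the opposite strand, and the strand setting of the counting is not given in the sources used here. For Ears2 the shared stretch with Ubfd1 is 89 bp, or 1.7% of its exon length, and for Hars2 the stretch shared with Hars is 195 bp, or 4.6%. Iars2 shares 22.9% with Rab3gap2, so that its few reads are uncertain. Iars has a processed pseudogene, Gm4849, with 96.0% identity over 1656 bp, and the split of reads between them is unknown.

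The amino acid response, in which the factor ATF4 acts on genes of amino acid synthesis, transport and tRNA charging, is a known control of several cytosolic synthetases. The core of its element, TGATGNAA, was searched on both strands in the 250 bases before the RefSeq start (GRCm38.p6) of 24 members with a usable entry. It was found in 2 of 24, Gars and Tars (8.33%), against 3.45% of 32817 windows of that length over all genes. Both promoters are shown because they alone hold the match. Capitals mark it, as the reverse complement on the gene's own strand.

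The Gars window is chr6:55037751-55038000 (plus strand), and the Tars run is chr15:11399666-11399908 (minus strand), which ends 7 bases before the RefSeq start.
Gars: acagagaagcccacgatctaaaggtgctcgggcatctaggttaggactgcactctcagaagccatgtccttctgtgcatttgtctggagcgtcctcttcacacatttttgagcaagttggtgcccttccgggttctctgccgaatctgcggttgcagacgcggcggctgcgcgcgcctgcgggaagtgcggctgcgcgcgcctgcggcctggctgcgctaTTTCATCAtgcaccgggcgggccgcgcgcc
Tars: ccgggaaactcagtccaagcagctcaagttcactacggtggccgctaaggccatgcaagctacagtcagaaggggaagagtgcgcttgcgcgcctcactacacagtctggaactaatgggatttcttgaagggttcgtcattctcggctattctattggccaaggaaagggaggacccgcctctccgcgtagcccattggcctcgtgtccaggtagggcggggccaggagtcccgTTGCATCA

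Gars held 9.31, 11.7, 10.2 and 16.4 FPKM in WT against 12.4, 12.8, 14.4 and 14.0 in Dux KO, within the WT range (log2 change 0.18, limma adjusted p = 0.435). Tars, with the values above, stood at -0.16 (adjusted p = 0.581). Neither gene with the match passed the test. Other motifs searched in the same windows were CACGTG, in 2 members (Farsb and Iars; 6.02% of all windows), CCGGAAGT, in 2 (Farsa and Mars; 2.88%), CCAAT, in 11 (45.8% against 33.8%), and the NRF1 motif, in 0 (0.777%). The DUX motif was in 0 of the 24 and in 10 of all windows. Of the 7 members that fell, 4 (Rars, Tars2, Hars2 and Nars) had no window searched. These matches describe letters in the window and not binding.

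Of 24 tested genes of the amino acid response, 6 rose and 3 fell, with a median of 0.24. Over all genes tested 15.5% rose, 18.1% fell and 33.6% passed in either direction. Shmt2, of mitochondrial serine and glycine metabolism, rose from 6.60 ± 1.12 to 18.2 ± 6.92 FPKM (log2 change 1.29, limma adjusted p = 0.00367), and Slc3a2, an amino acid transporter subunit, from 21.5 ± 1.67 to 37.6 ± 4.71 (0.77, 0.00458). Aldh18a1 of proline synthesis (0.74) and Psph of serine synthesis (0.73) also rose. Psat1, also of serine synthesis, fell from 75.8 ± 18.9 to 32.1 ± 5.11 FPKM (-1.20, limma adjusted p = 0.00298), as did the stress sensor Sesn2 (-0.76) and the aminotransferase Gpt2 (-0.39). Atf4 itself, named after its values were seen, was at 80.3 ± 7.91 in WT against 72.1 ± 4.59 in Dux KO (-0.15, adjusted p = 0.399).

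The scaffold of the multisynthetase complex had 2 of 3 genes lower and 0 higher, with a median of -0.60. Among all genes tested 18.1% fell, and among those with a mean of at least 5 FPKM 29.1% fell. Eef1e1, also known as AIMP3, fell from 110 ± 15.6 to 56.5 ± 12.3 FPKM (log2 change -0.97, limma adjusted p = 0.00526), close to the change of Rars. Aimp2 fell from 128 ± 29.8 to 83.7 ± 15.9 (-0.60, 0.0367). Aimp1, which is known to bind Rars in the complex, was at 3.38 ± 0.392 and 2.18 ± 1.06 and did not pass (-0.54, limma adjusted p = 0.120).

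Of 26 tested genes of tRNA processing, 10 fell (38.5%) and 0 rose, with a median of -0.36 and 23 of 26 under 0. Over all genes tested 18.1% fell, 15.5% rose and 51.6% lay under 0. Most of this list averaged 5 FPKM or more, and at that level 29.1% of all genes fell, with a median of -0.18. The excess of the list over genes of like level was not tested. Rpp40, a subunit of RNase P that trims the 5′ end of tRNA, fell from 66.8 ± 2.35 to 30.9 ± 6.21 FPKM (log2 change -1.11, limma adjusted p = 0.00224). Rpp38 of the same enzyme (-1.05), the splicing endonuclease subunit Tsen15 (-0.95) and the ligase partner Ddx1 (-0.93) fell too. The pools of Rpp38 and Tsen15 overlapped between groups, and both were lowest in Dux KO replicate 2, at 29.3 and 1.79 FPKM.

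Of 3 proofreading and synthetase-like genes tested, Prorsd1 fell (-0.79, limma adjusted p = 0.00393) and Dtd2 rose (0.52, 0.0460), though the pools of Dtd2 overlapped. Among 4 genes that finish mitochondrial charging, 1 rose: Gatc, a subunit of the amidotransferase that converts misloaded glutamate on glutamine tRNA, from 5.10 ± 1.73 to 9.67 ± 2.43 FPKM (0.83, limma adjusted p = 0.0258). Ears2, which is known to load that glutamate in mitochondria, went the other way from Gatc. The rest of this list did not pass: Gatb (0.03, limma adjusted p = 0.898), Qrsl1 (-0.32, 0.154) and Mtfmt (0.48, 0.105). Gatb and Qrsl1 are the other subunits of the amidotransferase. Of 6 elongation factor genes, the mitochondrial Tsfm rose (0.56, limma adjusted p = 0.0261) and the cytosolic Eef1d fell (-0.54, 0.0218). Tufm, also mitochondrial, lay under 0 and did not pass (-0.67, limma adjusted p = 0.0516). It passed with DESeq2 (adjusted p = 0.0384) but not with edgeR (0.0555). Beside the counts of these 3 lists, 15.5% of all genes tested rose and 18.1% fell.

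**Figure D5:**
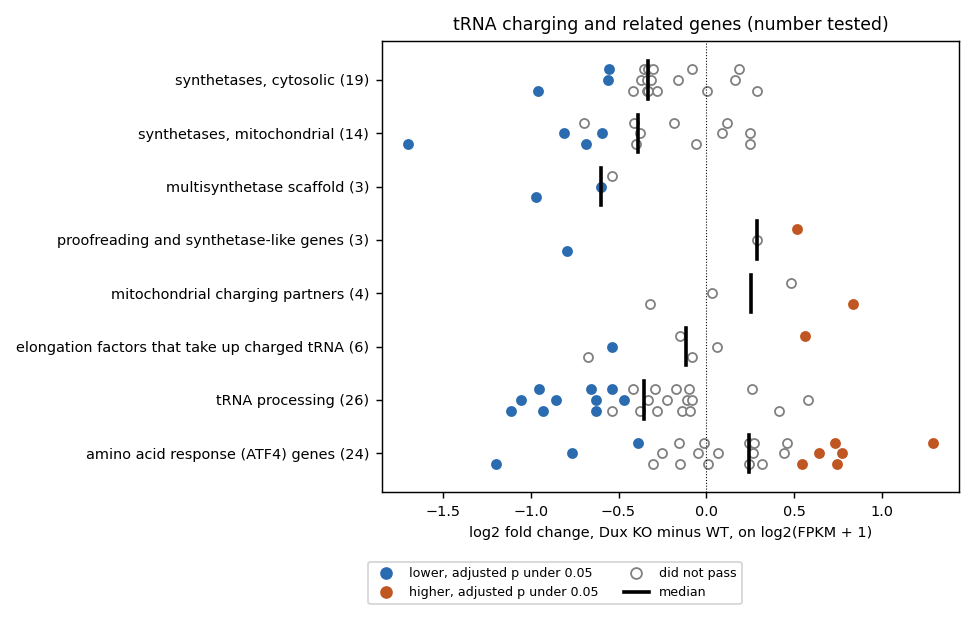
Log2 fold change (Dux KO minus WT, on log2(FPKM + 1)) of each tested gene in the 2 synthetase sets and 6 lists of related genes, with the number tested in brackets, the median as a bar, and filled points where the adjusted p is under 0.05. The synthetase, scaffold and tRNA processing genes that passed lie under 0, and those of the amino acid response on both sides of 0.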

How the data were processed

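RNA-seq of 8 pools, 4 per group, was used as deposited, and groups and replicate numbers came from the labels. The authors deposited FPKM per gene and FPM per repeat name (signal), together with a mean signal, a log2 fold change and an adjusted p-value of their own. Per the submitters' processing notes, Trimmomatic 0.32, STAR 2.6.1a, SAMtools 1.7 and GRCm38 (mm10) were used. The counter, annotation, strand setting and test of the authors were looked for, and each is not given in the sources used here. The table held no gene with a mean count under 25.0, and 0 numeric columns were left unmapped. FPKM steps gave whole reads for 100% of values within 0.05, and from these steps the values were inferred to be scaled by size factors.

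The 12434 genes that reached a mean of 0.5 FPKM were tested with limma 3.58.1 in R 4.3.3 (variance trend, robust moderation) on log2(FPKM + 1), with Benjamini-Hochberg adjustment over all of them, 2-sided, and called at 0.05. Intervals are 95% intervals of the fit. The script was tested on simulated data. Alternatives were no filter or a minimum mean of 5 FPKM, 0.1 as pseudocount, scaling by quantiles or by median of ratios, a block for the replicate number, plain limma moderation, the deposited p-values and leaving out each pool. DESeq2 1.42.0 and the quasi-likelihood test of edgeR 4.0.16, both on recovered reads, were chosen after seeing the data, as were fits without Dux KO replicates 1 and 2, and without 3 and 4, and ratios of FPKM with no pseudocount. Positions are from GENCODE M21, in which all 35 members were found. Promoters are from RefSeq (GRCm38.p6), with 26 members matched and 24 within 500 bp of the gene start.

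Members and lists were chosen with earlier results of these data known. Values in every pool were given for called members, their partners of the other compartment and the 4 most abundant members, and from each other list at most 4 called genes per direction were named. Of the members, 1 enters the counts, sums and medians but is not reported here by name. Further members, and further genes of the lists, were described after their values were seen. The labels do not say whether pools came from separate parents, so that the p-values rest on the spread among these pools, which may be technical.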

Additional observations from a re-analysis of the deposited data

Results flagged for a closer look

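In 70 sets of 4 pools (35 genes in each group), 2 held a pool far from the other 3, and chance gives about 1 in 20. Sars, the cytosolic serine enzyme, was at 2.57 FPKM in Dux KO replicate 4, while the other Dux KO pools held 5.57 to 6.17. Wars2, the mitochondrial tryptophan enzyme, was at 4.59 FPKM in WT replicate 4, while the other WT pools held 1.20 to 1.59. Without WT replicate 4 the log2 fold change of Wars2 was -0.40, and that of Sars without Dux KO replicate 4 was -0.18.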

How the results depend on the processing

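Ears2, Rars and Tars2 stayed lower and past the threshold under every alternative in which each was tested. Their limma, edgeR, DESeq2 or deposited adjusted p ran up to 0.0228, 0.0445 and 0.0459. Tars2 lies under the minimum mean of 5 FPKM and was not tested in that alternative. Nars lost its call in 1 alternative (without Dux KO replicates 1 and 2 together, limma adjusted p = 0.0913), Yars in 4, Rars2 in 6 and Hars2 in 8, and Wars2 gained one in 7 and Nars2 in 4. The count of lower synthetase genes was 7, with 4 to 7 when 1 pool was left out (4 without WT replicate 4, or with Dux KO replicate 1 or replicate 2 left out) and 3 without Dux KO replicates 1 and 2 together. For cytosolic genes these were 2 to 3 and 1, and for mitochondrial genes 2 to 4 and 2. Over all genes 4182 were called, with 2522 to 4049 when 1 pool was left out, 795 without Dux KO replicates 1 and 2 together and 3944 without 3 and 4 together; these fits have fewer samples. The members' median ran from -0.40 to -0.25.

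Pairs of enzymes whose ratio did not overlap between groups numbered 2 on FPKM + 1 and 3 on FPKM. No value named here that changed sign was called. Without Dux KO replicates 3 and 4 together, Iars was at -0.096, and without 1 and 2 together Farsb was at -0.015 and Yars2 at 0.052. When 1 pool was left out, Iars ran from -0.049 to 0.12, Yars2 from -0.17 to 0.047, Eprs from -0.17 to 0.017, Mars2 from -0.32 to 0.0036 and Tars from -0.29 to 0.021. The cause was not tested.

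Whether the replicate numbers pair the pools is not settled here. Deviations of same-numbered WT and Dux KO pools, replicates 1 to 4, were correlated at -0.115, 0.328, -0.0554 and 0.302. With the replicate number as a block, 8 synthetase genes were lower, 3 cytosolic and 5 mitochondrial, and 4732 genes were called. Depth limits the least abundant members, such as Pars2 with 16 to 55 reads per WT pool.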
